A study of Mus musculus with 20 samples.

Results

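Metallothioneins, the zinc transporters around them and the genes that take up, store and sense iron were followed in sorted tumor cells of MycCaP-Bo prostate cancer bone metastases. The set holds 10 of the 17104 genes listed in 3 expression tables: the metallothioneins Mt1 and Mt2, the zinc exporter Slc30a1, the zinc importers Slc39a10 and Slc39a14, the zinc-sensing transcription factor Mtf1, the ferritin receptor Scara5, the ferritin subunits Fth1 and Ftl1, and the transferrin receptor Tfrc. The genes were chosen by symbol, and in part by their measured change in resistant tumors, where Mt1 was low and Scara5 high. Their values in these tumors are therefore given as a description, without a test of group differences, also where the same libraries are set against other groups. Tests of group differences of the genes were kept for Resist-Mac vs. Naive-Mac, whose libraries do not enter that measured change. Earlier results of these data were known when the genes were chosen, so independence of these tests from the choice is not assured. Co-variation of pairs of the genes was tested within Naive and Resist, after each group's mean was removed. All 10 were listed in each table.

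MycCaP-Bo is a bone-selected derivative of MycCaP, a murine prostate cancer line from the Myc-driven HiMyc model on the FVB background. It carries a viral firefly luciferase and infra-red fluorescent protein (iRFP), and it was injected into the heart of FVB/N mice aged 4 to 6 weeks, 7 days before treatment began. Naive mice received vehicle. Resist mice received enzalutamide, an anti-androgen drug, by daily gavage at 30 mg/kg for 18 days. Resist-Mac mice received the same enzalutamide course plus clodronate liposomes, which deplete phagocytic macrophages, at 1 mg per mouse over the last 4 days. Naive-Mac mice received vehicle plus clodronate liposomes for 4 days. Each group has 5 libraries, and each library holds CD45- iRFP+ cells pooled from 3 mice. All groups share 1 tumor line, so the libraries do not sample different tumors of origin.

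Metallothioneins are small cysteine-rich proteins that bind zinc and copper, and zinc itself induces them through Mtf1, which binds metal response elements in their promoters and in that of Slc30a1. Glucocorticoids and oxidative stress also raise them. Cells keep iron in ferritin, a shell of heavy (Fth1) and light (Ftl1) subunits, and take it up as transferrin through Tfrc or as ferritin through receptors such as Scara5. When iron is scarce, iron regulatory proteins bind hairpins called iron-responsive elements, which blocks translation of ferritin mRNA and protects Tfrc mRNA from decay, so that ferritin protein is not read from ferritin mRNA alone.

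The regulatory sequences that the text refers to are given first. Mt2 and Mt1 lie on the plus strand of chromosome 8 (RefSeq, GRCm38.p6), with start sites 6471 bases apart. The 250 bases before each start site, chr8:94172368-94172617 for Mt2 and chr8:94178839-94179088 for Mt1, are printed 5′ to 3′, with capitals for the core of the metal response element (TGCACNC or TGCGCNC, on either strand).
Mt2: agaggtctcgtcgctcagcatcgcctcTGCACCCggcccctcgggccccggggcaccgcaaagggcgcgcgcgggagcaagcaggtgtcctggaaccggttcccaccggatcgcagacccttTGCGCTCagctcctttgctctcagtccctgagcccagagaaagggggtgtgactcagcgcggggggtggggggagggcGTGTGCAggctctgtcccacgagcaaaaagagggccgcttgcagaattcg
Mt1: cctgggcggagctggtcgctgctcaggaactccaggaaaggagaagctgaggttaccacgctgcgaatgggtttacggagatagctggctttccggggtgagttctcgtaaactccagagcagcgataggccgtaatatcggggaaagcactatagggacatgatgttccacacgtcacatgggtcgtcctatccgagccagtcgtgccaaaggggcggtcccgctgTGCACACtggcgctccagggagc
Counted over 300 bases, which add 50 bases after the start site, the Mt2 window held 4 matches and the Mt1 window 3. Of these, 3 and 1 lie in the printed stretches. Among 32851 RefSeq windows of the same length, 25.7% held at least 1 match, 1.97% at least 3 and 0.517% at least 4. The Slc30a1 window held 2 matches and the Tfrc window 2 that overlap each other, and 7.11% of windows held at least 2. No match was found in the windows of Slc39a10, Mtf1, Fth1 and Ftl1, and 8 of the 10 genes had a window. The Mt2 window also held 1 match to the antioxidant response core TGACNNNGC, as did 12.4% of windows, and none was found for Mt1. A match is a string of letters and was not tested for binding. GENCODE lists further Mt1 start sites downstream of the one used here. Bases before those sites can lie beyond the Mt1 window, so the counts of Mt1 and Mt2 are not compared.

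Iron-responsive elements (an unpaired C, 5 bases, the loop CAGTGN in capitals and 5 bases that pair with the first 5) were searched in GENCODE M21 transcripts. The heavy and light ferritin mRNAs carry 1 each in the 5′ untranslated region, and Tfrc carries 4 in the 3′ untranslated region.
Fth1: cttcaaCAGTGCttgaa
Ftl1: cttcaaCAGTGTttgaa
Tfrc element 1: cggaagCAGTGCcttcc
Tfrc element 2: cgggagCAGTGTcttcc
Tfrc element 3: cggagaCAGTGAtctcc
Tfrc element 4: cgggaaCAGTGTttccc
The ferritin elements share their stem and differ at the last loop base. Of 21877 protein-coding genes searched by their longest transcript, 1.24% held at least 1 such string and 0.00457%, which is 1 gene, held at least 4.

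Libraries listed between 12087 and 14056 genes above 0. From the smallest steps in FPKM (fragments per kilobase of transcript, scaled to the depth of the library), depth was estimated at 8950000 to 11700000 fragments. The sum of FPKM per library was 481161 to 530961 in Naive and Resist, 617494 to 761510 in Resist-Mac and 882276 to 1040436 in Naive-Mac. Of the prostate epithelial markers, Krt8 averaged 317, 190, 107 and 196 FPKM in Naive, Resist, Resist-Mac and Naive-Mac, whereas Krt18 stayed at or under 0.106 FPKM on average in every group. Naive and Resist shared a batch and a table, and Resist-Mac and Naive-Mac each had their own. Any comparison with these 2 groups therefore sets batch against batch, and treatment and batch cannot be told apart in it. Summed over the list, 10 neutrophil markers reached 61.4 to 1270 FPKM in Naive and Resist, 406 to 8770 in Resist-Mac and 58.7 to 6160 in Naive-Mac, although the sort removed CD45+ cells. The deposited names of Resist-Mac replicates 2 and 3 share a number, as do those of replicates 4 and 5 and those of Naive-Mac replicates 1 and 4, and what the number marks is not stated. Averaging the libraries that share a number leaves 3 Resist-Mac and 4 Naive-Mac values.

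Among the 10 genes, 5 separated Naive from Resist without overlap: Mt1, Mt2 and Slc39a10 were lower and Scara5 and Fth1 higher in Resist, while Slc30a1, Slc39a14, Mtf1, Ftl1 and Tfrc overlapped. Among all 10119 genes tested in the same groups, 12.8% did not overlap and 6.35% passed an adjusted p under 0.05 with a fold over 1.5, the thresholds used throughout. The 10 genes were selected from this contrast, so nothing is read from their share. Of all the genes that passed, 82.6% were higher in Resist, and this share ranged from 69.5% to 87% over other scalings.

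**Figure D1:**
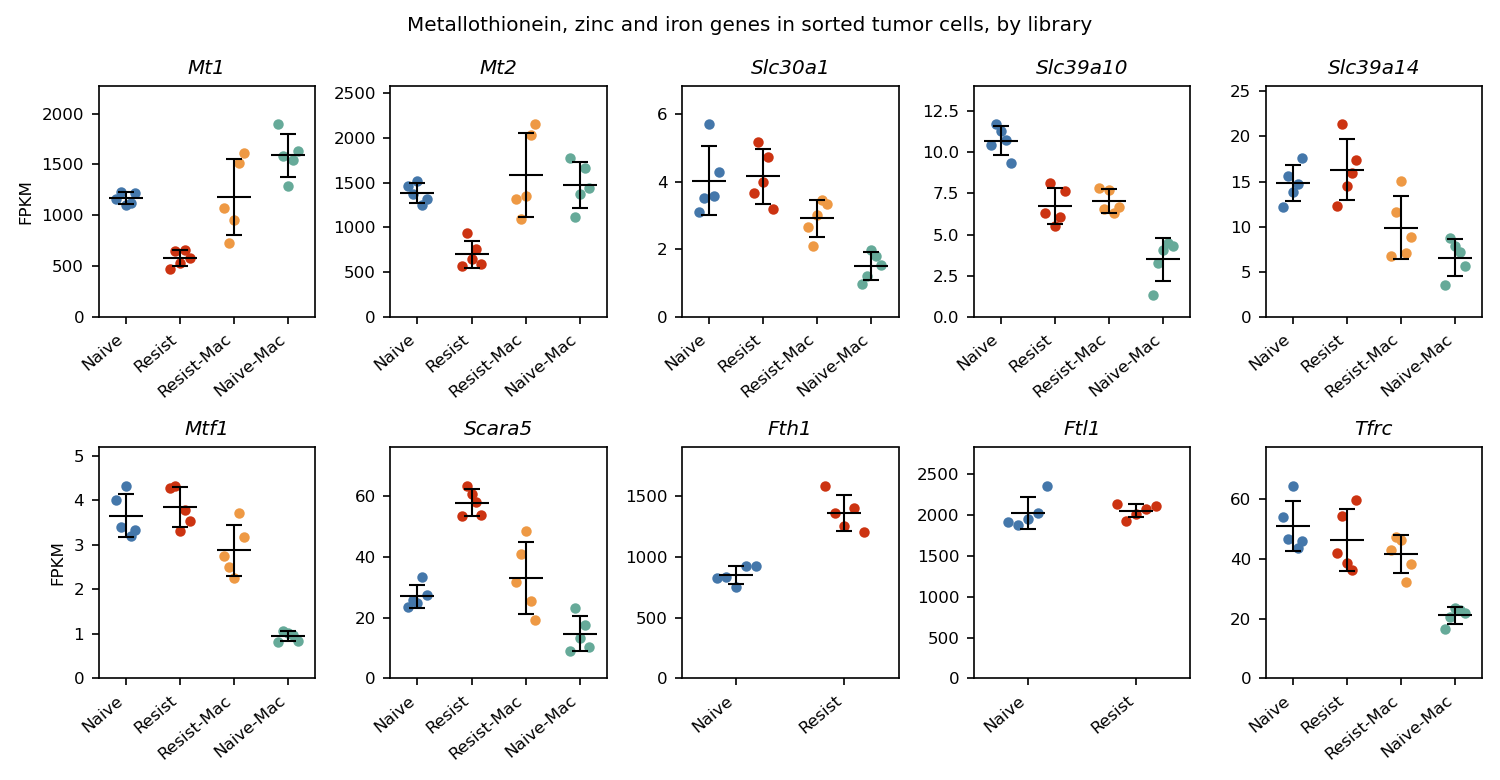
FPKM of the 10 genes (y axis, linear, from 0) in each library of Naive, Resist, Resist-Mac and Naive-Mac (x axis); points are libraries, and black marks are means ± SD of 5 libraries. Fth1 and Ftl1 are shown in Naive and Resist only. In Resist, Mt1 sits between 476 and 661 FPKM, below every other library, and Scara5 between 53.3 and 63.3 FPKM, above every other library.

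Mt1 measured 1165, 1231, 1102, 1117 and 1218 FPKM in the 5 Naive libraries and 476, 646, 535, 661 and 580 FPKM in the 5 Resist libraries. The highest Resist library lay far below the lowest Naive library. The group means were 1167 ± 57.7 and 580 ± 76.9 FPKM (SD, n = 5), a ratio of 0.497 and a log2 change of -1.02 ± 0.09 (SE).

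Mt2, its neighbor on chromosome 8, measured 1459, 1372, 1520, 1245 and 1320 FPKM in Naive and 573, 937, 644, 756 and 596 FPKM in Resist. The groups again did not overlap, and the Resist libraries were more spread, with a coefficient of variation of 21.3% against 7.9% in Naive. The ratio of the means was 0.507, and the SE of the log2 change was 0.12. Mt1 and Mt2 were between 476 and 2150 FPKM over all 20 libraries, and the other 2 metallothionein genes of the mouse, Mt3 and Mt4, were not compared because they are not listed in both groups.

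Mtf1, whose product drives metallothionein transcription, measured 3.65 ± 0.484 FPKM in Naive and 3.84 ± 0.449 FPKM in Resist (SD, n = 5), and the groups overlapped. Slc30a1, which moves zinc out of the cell and is itself a target of Mtf1, measured 4.04 ± 1.02 and 4.16 ± 0.805 FPKM. The log2 changes were 0.06 ± 0.10 for Mtf1 and 0.04 ± 0.15 for Slc30a1 (SE). Slc39a14, a zinc importer that also carries iron and manganese, measured 14.8 ± 1.99 and 16.3 ± 3.39 FPKM, with overlapping libraries.

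Slc39a10, a plasma membrane zinc importer, measured 10.4, 11.7, 11.3, 10.7 and 9.35 FPKM in Naive and 6.29, 8.13, 5.51, 6.05 and 7.62 FPKM in Resist. Every Resist library was below every Naive library, with a ratio of means of 0.628. This change of -0.61 (log2) lies just past the fold threshold of 1.5.

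Scara5, a scavenger receptor that takes up ferritin and delivers iron without transferrin, measured 23.5, 25.9, 25, 33.3 and 27.4 FPKM in Naive and 53.3, 63.3, 60.8, 58 and 53.7 FPKM in Resist. The lowest Resist library was above the highest Naive library by a wide margin. The means were 27 ± 3.77 and 57.8 ± 4.38 FPKM (SD, n = 5), a ratio of 2.14 and a log2 change of 1.08 ± 0.09 (SE).

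The ferritin subunits, whose elements were shown above, differed from each other. Fth1 measured 830, 831, 753, 926 and 926 FPKM in Naive and 1583, 1357, 1254, 1404 and 1204 FPKM in Resist. The groups did not overlap, and the ratio of means was 1.59. Ftl1 measured 1917, 1878, 1945, 2022 and 2355 FPKM in Naive and 2134, 1931, 2015, 2078 and 2115 FPKM in Resist. These values overlapped throughout, with a ratio of means of 1.02. Within a library, the Fth1 level over the Ftl1 level was 0.387 to 0.458 in Naive and 0.569 to 0.741 in Resist, so this ratio did not overlap either. Annotated pseudogenes that aligned at 0.9 identity or more over 200 bases or more numbered 6 for Ftl1 and 1 for Fth1, so reads may be split or shared between copies, and both genes were compared only within the table that holds Naive and Resist. Slc39a10 had 1 such pseudogene, over 348 bases, a limit on its values in every comparison. In the other tables Fth1 is listed at 1361 to 1896 FPKM in Resist-Mac and 1293 to 1745 in Naive-Mac, and Ftl1 at 2378 to 2631 and 2997 to 3384.

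Tfrc, whose mRNA level falls when iron is plentiful, measured 54, 46.8, 64.5, 43.8 and 46.1 FPKM in Naive and 42.2, 54.5, 38.7, 36.3 and 59.9 FPKM in Resist. The groups overlapped widely, with a log2 change of -0.15 ± 0.15 (SE).

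Erythroid cells and macrophages are rich in ferritin, and their markers were followed beside these values. Of 10 erythroid markers, 8 were listed in Naive and Resist, and only Hba-a1 reached a mean of 1 FPKM in either group, at 88.9 FPKM in Naive and 153 FPKM in Resist. The erythroid sum was 54.1 to 108 FPKM in Naive and 107 to 201 FPKM in Resist, with Hbb-bt at 0 in every library of both. Of 12 macrophage markers, 11 were listed, and the list sum was 16.1 to 96.7 FPKM in Naive and 3.51 to 51.4 FPKM in Resist. Only 2 reached a mean of 1 FPKM, and they went in opposite directions. Lyz2 averaged 38.1 FPKM in Naive and 21.1 in Resist, and Cd68 averaged 1.07 and 1.47. Cd163 averaged 0.008 FPKM in Naive and was at 0 throughout Resist. The part of either cell type in the ferritin values was not tested. In bulk RNA, fewer cells of a type and less RNA per cell cannot be told apart.

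Other genes of zinc, iron, heme and copper handling were tested in Resist vs. Naive as a list of 86 genes, of which 62 passed the filter of a mean of 1 FPKM. Of these, 59 averaged 1 FPKM or more in both groups, and 5 of the 59 rose and 2 fell, or 11.9% beside 6.35% of all genes. Their median log2 change was -0.01 and that of all genes 0.03. The values of all genes use a wider filter, a mean of 1 FPKM over both groups together. The lists were chosen with earlier results of these data known. Nothing is therefore read from the share of list genes that passed, and the adjusted p-values of list genes carry the same limit. Iron uptake held 2 that rose of 5 tested, mitochondrial iron and iron-sulfur clusters none of 10, and zinc exporters 1 that fell of 7.

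Flvcr2, a heme and choline transporter, rose most, from 1.64 to 4.26 FPKM in Naive to 5.29 to 26.1 FPKM in Resist (log2 change 1.88 ± 0.34 SE, adjusted p = 0.00311, limma). Steap4, a metalloreductase that reduces iron and copper before uptake, rose from a mean of 12.5 to 40.4 FPKM (1.59 ± 0.23, adjusted p = 0.000932). Cp, the ferroxidase ceruloplasmin that oxidizes iron leaving the cell, rose from 143 ± 30.4 to 305 ± 73 FPKM (SD, n = 5; log2 change 1.08, adjusted p = 0.00143, limma). The copper transporter Slc31a2 rose from 11.1 to 21.7 FPKM (0.88, adjusted p = 0.00251). Tmprss6, a protease that lowers hepcidin in the liver, averaged 0.378 FPKM in Naive and 2.87 FPKM in Resist, and it passed the filter only through Resist, so its difference is given without a test.

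Hmox1, which degrades heme and releases its iron and is a classical stress-response gene, fell from 9.38 to 13.2 FPKM in Naive to 4.17 to 8.04 FPKM in Resist (log2 change -0.83 ± 0.16 SE, adjusted p = 0.00466, limma). Its libraries did not overlap. The vesicular zinc exporter Slc30a3 fell from 2.91 to 1.54 FPKM (-0.64, adjusted p = 0.0186), a call that was lost without Naive replicate 3 (-0.58) or Resist replicate 3 (-0.52). That call was also lost with the replicate block (-0.64, adjusted p = 0.06, limma). The calls of Flvcr2, Steap4, Cp, Slc31a2 and Hmox1 were kept with each library left out in turn.

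**Figure D2:**
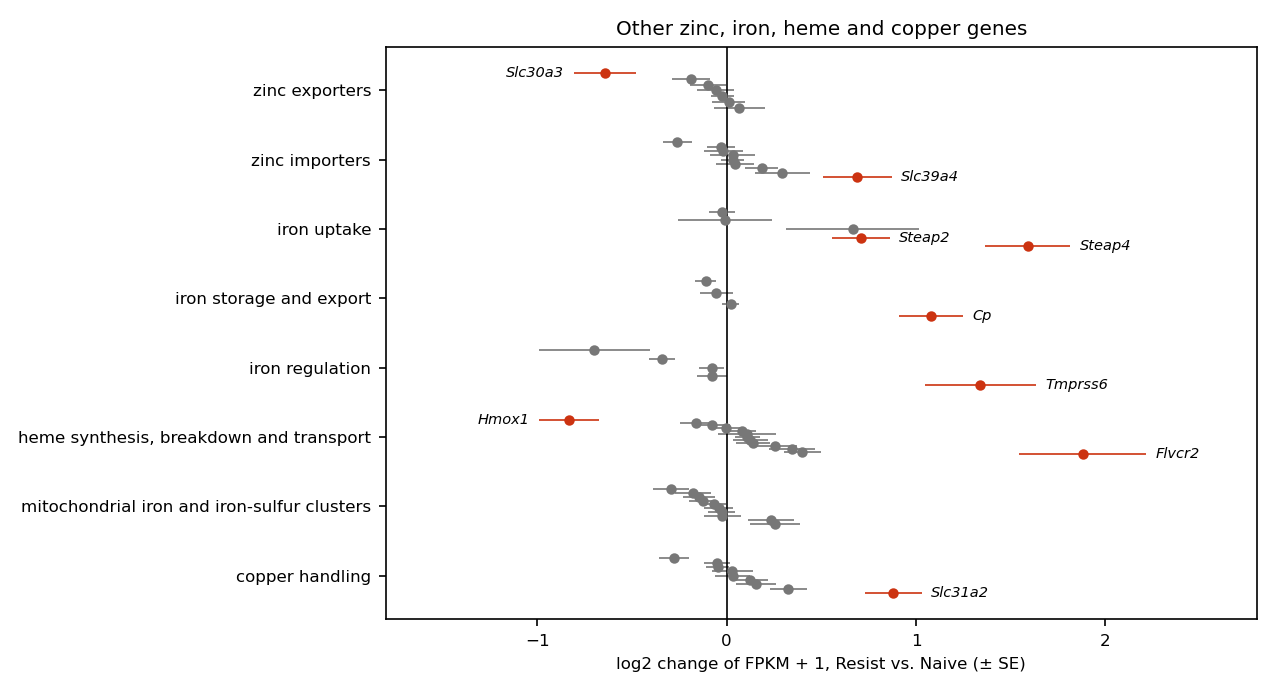
Log2 change of FPKM + 1 in Resist vs. Naive (x axis, ± SE) of the other zinc, iron, heme and copper genes that passed the filter, grouped by list (y axis). Red points passed the thresholds and grey points did not, and Tmprss6 and Slc39a4 passed the filter only through Resist. Most lists center near 0, with Flvcr2 at 1.88 farthest to the right and Hmox1 at -0.83 farthest to the left.

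The change in resistant tumors by which genes were in part chosen does not use the 10 macrophage-depleted libraries. In these libraries 7 genes were tested, as the ferritins were not compared and Mtf1 passed the filter only through Resist-Mac. Earlier results of these data were known when the genes were chosen, which limits the p-values below. In Resist-Mac vs. Naive-Mac, 4 of the 7 rose (Scara5, Tfrc, Slc39a10 and Slc30a1), 3 did not pass and 3 did not overlap. Of all 9760 genes tested, which include those that passed the filter only through their higher group, 46.2% passed and 47.8% did not overlap, so these counts are near the background. The median log2 change was 0.65 for the 7 genes and 0.34 for all genes. Of the genes that passed, 80.5% were higher in Resist-Mac, a share that ran from 48.8% with median-ratio scaling to 96.1% with a common sum of FPKM.

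Scara5 measured 31.7, 40.8, 48.5, 25.5 and 19.1 FPKM in Resist-Mac and 8.99, 23, 13.4, 17.7 and 10.5 FPKM in Naive-Mac. Only the lowest Resist-Mac library fell within the Naive-Mac range. The log2 change was 1.12 ± 0.27 (SE), the ratio of means 2.25 and the adjusted p 0.00272 (limma). Scara5 was called under every alternative, with log2 changes of 0.68 to 1.55, and at 1.45 (adjusted p = 0.00179) when the libraries with at least 2000 FPKM of neutrophil markers were left out, which leaves 2 libraries in each group. With libraries that share a number averaged it was 1.08 (adjusted p = 0.00648), and Tfrc, Slc39a10 and Slc30a1 kept their calls too.

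The metallothioneins gave values that depended on the libraries and the scaling. Mt1 measured 1072, 732, 954, 1514 and 1614 FPKM in Resist-Mac and 1893, 1580, 1292, 1548 and 1635 FPKM in Naive-Mac. The groups overlapped at their edges, and the log2 change of -0.48 ± 0.20 (SE, adjusted p = 0.0468, limma) was under the fold threshold, reached -0.94 with median-ratio scaling and turned to 0.26 with a length and GC correction and 0.05 with quantile normalization. Without Resist-Mac replicate 4 or 5, which share a number and had the highest Mt1 of the group, it passed at -0.59 and -0.61, and so it did at -0.94 (adjusted p = 0.00185) in the libraries under 2000 FPKM of neutrophil markers. With libraries that share a number averaged it was -0.46 (adjusted p = 0.0669). Mt2 measured 1589 ± 471 FPKM in Resist-Mac and 1474 ± 257 FPKM in Naive-Mac (SD, n = 5), a log2 change of 0.08 ± 0.19 (SE) that ranged from -0.38 to 1.15 over alternatives.

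Mtf1 was the lowest of the set in Naive-Mac, at 0.82 to 1.07 FPKM, or an estimated 59 to 76 fragments per library. In Resist-Mac it measured 2.25 to 3.71 FPKM, above every Naive-Mac library, with a log2 difference of 0.99 that is given without a test because of the filter. The difference was 0.24 with quantile normalization and 0.17 with the length and GC correction. Slc30a1 measured 2.92 ± 0.546 FPKM in Resist-Mac and 1.51 ± 0.411 FPKM in Naive-Mac (SD, n = 5; log2 change 0.65, adjusted p = 0.00376, limma). Its call was lost without Naive-Mac replicate 1 (0.57), with median-ratio scaling (0.34), with the length and GC correction (0.26) and under the neutrophil marker limit (0.57), and its sign turned with quantile normalization (-0.12).

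Slc39a10 measured 7.85, 6.56, 7.73, 6.31 and 6.7 FPKM in Resist-Mac and 1.32, 3.29, 4.07, 4.47 and 4.33 FPKM in Naive-Mac. Every Resist-Mac library was above every Naive-Mac library (log2 change 0.90 ± 0.22 SE, adjusted p = 0.00288, limma), whereas every Resist library was below every Naive library. The call was lost with median-ratio scaling (0.53), quantile normalization (0.20) and the length and GC correction (0.51).

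Tfrc measured 32.2 to 47.6 FPKM in Resist-Mac and 16.5 to 23.7 FPKM in Naive-Mac, without overlap (log2 change 0.94 ± 0.13 SE, adjusted p = 5.23e-05, limma). With median-ratio scaling the change was 0.50, under the fold threshold. Slc39a14 overlapped, at 9.88 ± 3.51 and 6.59 ± 2.08 FPKM (SD, n = 5), and did not pass (log2 change 0.51, adjusted p = 0.0835). It passed with a common sum (0.91) and under the neutrophil marker limit (0.82), and turned to -0.11 with quantile normalization and -0.04 with the length and GC correction.

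**Figure D3:**
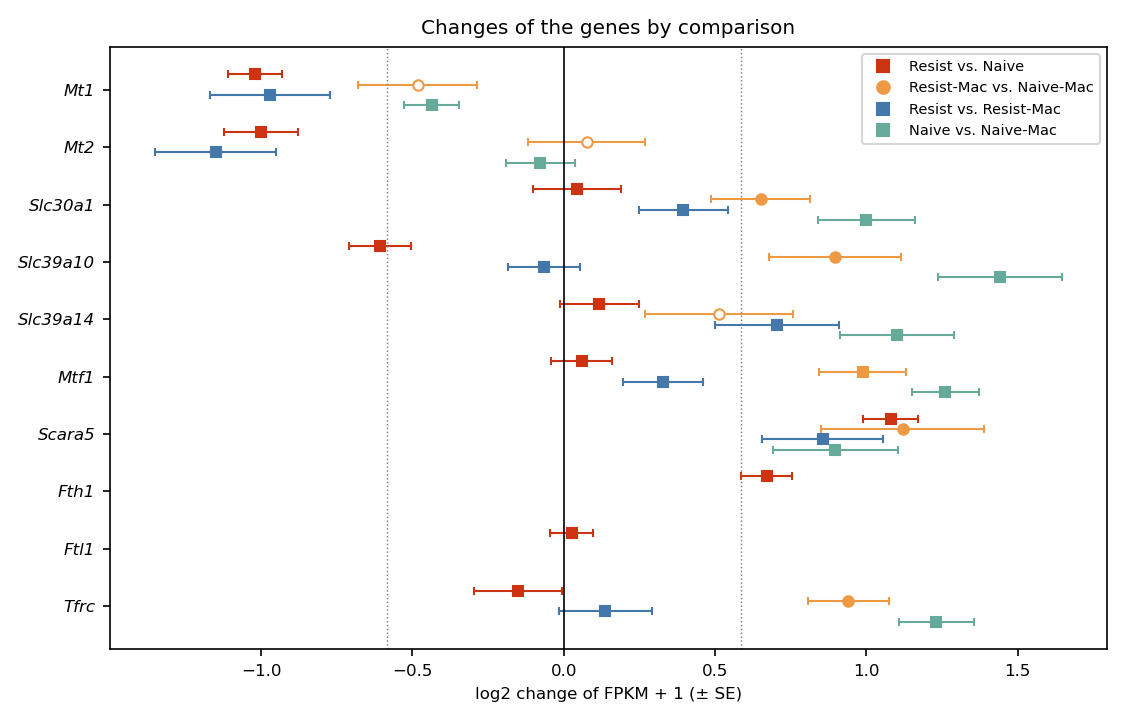
Log2 change of FPKM + 1 (x axis, ± SE) of the 10 genes (y axis), for Fth1 and Ftl1 in Resist vs. Naive only and for the other 8 in 4 comparisons. Squares carry no test, filled circles passed both thresholds, open circles did not, and dotted lines mark a fold of 1.5. Scara5 lies to the right of 0 in every comparison (0.85 to 1.12), while Mt1 and Mt2 lie near -1 in both comparisons with Resist as the first group.

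Clodronate treatment in resistant tumors was compared in Resist vs. Resist-Mac, which shares its Resist libraries with Resist vs. Naive. The genes were chosen on those Resist values, so their differences are a description. Of 8 genes, Scara5 was higher and Mt1 and Mt2 lower in Resist without overlap, and 5 overlapped. Among 10049 genes, 21.7% passed and 29.7% did not overlap, and of those that passed 44.8% were higher in Resist (36.4% to 93.8% over alternatives).

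All 5 Resist libraries of Mt1 (476 to 661 FPKM) were below all 5 Resist-Mac libraries (732 to 1614 FPKM), with a log2 difference of -0.97 ± 0.20 (SE). For Mt2 the ranges were 573 to 937 and 1090 to 2150 FPKM and the log2 difference -1.15 ± 0.20 (SE). Both stayed below 0 in every alternative run, at -1.13 to -0.35 for Mt1 and -1.28 to -0.29 for Mt2. With the libraries rich in neutrophil markers left out, Mt1 was at -0.54 and Mt2 at -0.81.

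Scara5 was higher in all 5 Resist libraries than in any Resist-Mac library (log2 difference 0.85 ± 0.20 SE), and without the libraries rich in neutrophil markers the difference was 0.37. The Resist-Mac libraries with the most Scara5, replicates 3 and 2 at 48.5 and 40.8 FPKM, were those with the least neutrophil marker sum, 406 and 998 FPKM. Replicates 1, 4 and 5 had 31.7, 25.5 and 19.1 FPKM of Scara5 at sums of 8770, 2460 and 4880 FPKM. The library with the highest sum was thus not the one with the least Scara5. Slc39a14 was at 12.3 to 21.3 FPKM in Resist and 6.75 to 15.1 FPKM in Resist-Mac (log2 difference 0.70, and 0.26 without those libraries), with overlap. The part of other cells in these values was not tested. Slc39a10 and Tfrc differed little, with log2 changes of -0.06 ± 0.12 and 0.14 ± 0.15 (SE).

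Naive vs. Naive-Mac is likewise a description, since it uses the Naive libraries. In 7 of 8 genes the groups did not overlap, with 6 higher in Naive and Mt1 lower, where 59.7% of 9837 genes passed and 66% did not overlap. Of those that passed 62.9% were higher in Naive (47.9% to 92.9% over alternatives). Slc39a10 differed by 1.44 ± 0.21 and Tfrc by 1.23 ± 0.12 (log2, SE), and over the alternatives they stayed between 0.76 and 2.16 and between 0.92 and 2.06. The differences of Mtf1 (1.26), Slc39a14 (1.10), Slc30a1 (1.00) and Scara5 (0.90) became -0.09, 0.23, 0.32 and 0.54 with the length and GC correction. Mt1 was lower in all 5 Naive libraries than in any Naive-Mac library, at a log2 difference of -0.44 ± 0.09 (SE) that turned to 0.42, 0.70 and 0.76 with a common sum, quantile normalization and the length and GC correction. Mt2 was at -0.08 ± 0.11 (SE) and turned to 0.78, 1.00 and 1.55 in the same settings.

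The ratio of Mt1 to Mt2 within a library does not depend on the library's total. It was 0.848 ± 0.0836 in Naive, 0.839 ± 0.102 in Resist, 0.737 ± 0.0522 in Resist-Mac and 1.1 ± 0.196 in Naive-Mac (SD, n = 5). In Naive-Mac 3 of the 5 libraries had more Mt1 than Mt2, which none of the other 15 libraries had. Resist-Mac differed from Naive-Mac by -0.36 (exact two-sided permutation test, p = 0.00794 without adjustment, the smallest that 5 against 5 allows). This p takes the libraries as independent, although some share a number in their names. Averaging those libraries leaves 3 Resist-Mac and 4 Naive-Mac values, too few for this test to reach 0.05, and was not done for the ratio. The ratio was chosen after seeing the data, so no conclusion is drawn from this p. Each of the 2 groups has its own table, and the ratio was not run with the length and GC correction. In this comparison that correction took the log2 change of Mt1 from -0.48 to 0.26 and that of Mt2 from 0.08 to 1.15. The differences that use Naive or Resist libraries are given without a test: Naive less Naive-Mac was -0.249, and Resist less Resist-Mac was 0.102, or 0.14 without Resist replicate 2.

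**Figure D4:**
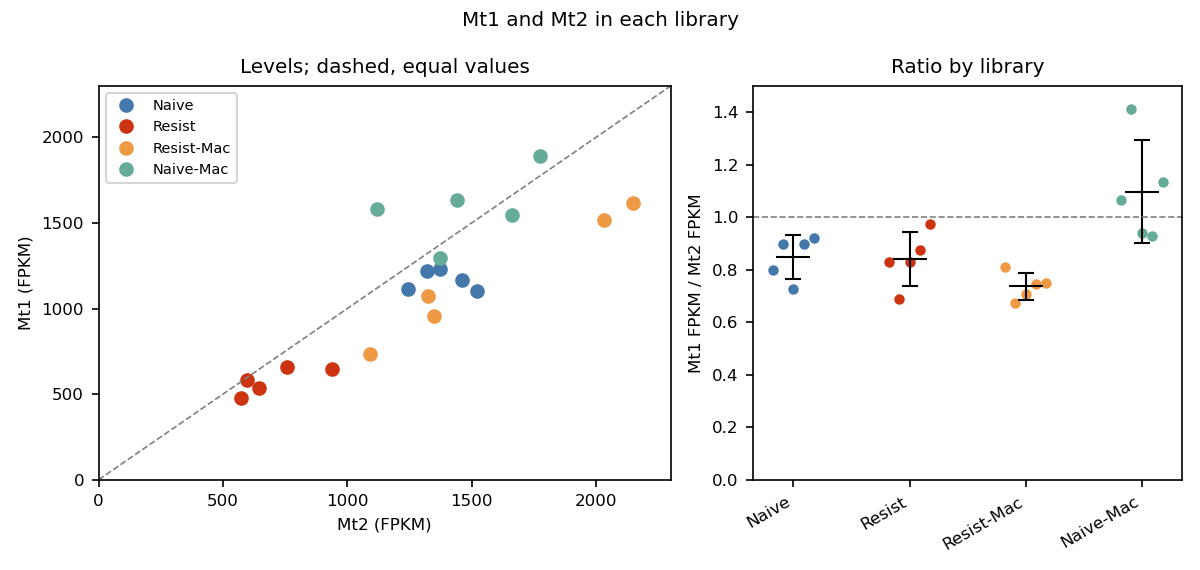
Left, Mt1 against Mt2 (FPKM, linear axes from 0) in each of 20 libraries, with a dashed line of equal values; right, Mt1 FPKM over Mt2 FPKM by group, with means ± SD of 5 libraries. Resist libraries sit at the lower left, and the Naive-Mac libraries have the highest ratios, with a mean of 1.1.

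Co-variation within groups was measured over the 10 Naive and Resist libraries after removing each group's mean, for 6 pairs of genes. Mt1 and Mt2 had the following correlation (Pearson r = 0.667, permutation p = 0.136; Spearman rho = 0.552, permutation p = 0.201), and adjusted over the 6 pairs p was 0.363 and 0.512. Without the 2 libraries farthest from the median of Mt1, r was 0.551, and on FPKM rather than log2 values it was 0.418. Tfrc and Fth1 had r = -0.602 (permutation p = 0.0972, adjusted p = 0.363), which fell to -0.163 without the 2 libraries farthest from the median. Fth1 and Ftl1 were at 0.456, Mt1 and Slc39a10 at 0.29 (0.555 without the 2 farthest libraries and -0.244 over all 20), Mt1 and Slc30a1 at 0.278 and Scara5 and Ftl1 at 0.056, and none of the 6 pairs passed.

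By the same measure over 10 libraries, the tested genes most like Mt1 were Myocd (r = 0.975), Msantd4 (0.958), Ggta1 (0.936), Sgms2 (0.922) and Slc7a11 (0.918). Those most like Mt2 were Ubn1 (r = 0.954), Mpp5 (0.94), Senp7 (0.939), Ube4a (0.937) and Syne3 (0.934). Those most like Scara5 were Ubap2l (r = 0.87), Polr3c (0.863), Zdhhc12 (0.855), Gatd1 (0.85) and Lrba (0.843). Each is the top of a ranking of 10119 genes over few libraries and is given as a description only. No gene is shared between these 3 lists.

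Among the other genes of the lists that averaged 1 FPKM or more in both groups, 9 rose and 5 fell of 57 in Resist-Mac vs. Naive-Mac, or 24.6% beside 46.2% of all genes. In Resist vs. Resist-Mac 3 were higher and 9 lower of 60, or 20% beside 21.7%, and in Naive vs. Naive-Mac 8 were higher and 15 lower of 57, or 40.4% beside 59.7%. Shares of all genes rest on the wider filter of a mean of 1 FPKM over both groups together. Here too the lists were chosen with earlier results of these data known, a limit on their shares and adjusted p-values. Flvcr2 rose again in Resist-Mac vs. Naive-Mac (11.4 against 1.45 FPKM, log2 change 2.30, adjusted p = 1.24e-05, limma) without overlap. Tmprss6 and Slc25a37, the mitochondrial iron importer mitoferrin, passed the filter only through Resist-Mac, with log2 differences of 1.30 (0.09 under the neutrophil marker limit) and 1.24. The copper exporter Atp7a and the ferritin-degrading receptor Ncoa4 rose by 1.12 and 1.11 (log2), the first at 0.37 with quantile normalization, while Isca2 and Glrx5 of iron-sulfur cluster assembly fell by 1.28 and 1.14 on the log2 scale, Commd1 by 0.73 and Uros by 0.62. The Isca2 call was lost with the length and GC correction (-0.58) and that of Commd1 with a common sum (-0.28). That of Uros was lost with both (-0.26 and -0.19) and without Resist-Mac replicate 4 (-0.57), Naive-Mac replicate 1 (-0.57) or Naive-Mac replicate 2 (-0.58).

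Clodronate comparisons of the same lists gave other leading genes. Slc30a7, which loads zinc into the Golgi, was higher in Resist than Resist-Mac (log2 change 1.45, adjusted p = 1.62e-06, limma) and in Naive than Naive-Mac (1.83, adjusted p = 4.75e-08, and 0.57 with the length and GC correction). In Resist vs. Resist-Mac, Cp (0.66) and Slc30a2 (0.62, and 0.33 in the libraries under 2000 FPKM of neutrophil markers) were also higher and Atox1 (-0.92), Glrx5 (-0.89) and Hmox2 (-0.86) lower. The Cp call was lost without Resist replicate 1 (0.54) or Resist-Mac replicate 5 (0.51), with libraries that share a number averaged (0.58) and with the length and GC correction (0.53), and that of Slc30a2 without Resist replicate 4 (0.53) or Resist-Mac replicate 1 (0.50) and with quantile normalization (0.52). With a common sum Atox1, Glrx5 and Hmox2 were at -0.45, -0.43 and -0.41, under the fold threshold, and so were Atox1 (-0.56) and Glrx5 (-0.49) with quantile normalization and Atox1 (-0.08) and Hmox2 (-0.53) with the length and GC correction. Lcn2, an iron-siderophore binder that neutrophils also make, was lower in Resist by -1.63, and by -0.35 (adjusted p = 0.411) in the libraries under 2000 FPKM of neutrophil markers. Its call was also lost with a common sum (-1.17) and the length and GC correction (-1.22). In Naive vs. Naive-Mac, Ireb2 (1.13), Atp7a (1.10) and Ncoa4 (0.98) were higher and Glrx5 (-1.86), Isca2 (-1.51), Commd1 (-1.51) and Cox17 (-1.24) lower. The calls of Ireb2 (0.57), Atp7a (0.42), Ncoa4 (0.56) and Cox17 (-0.45) were lost with quantile normalization, that of Cox17 also with a common sum (-0.38), and those of Ncoa4 (0.51) and Isca2 (-0.44) with the length and GC correction.

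**Figure D5:**
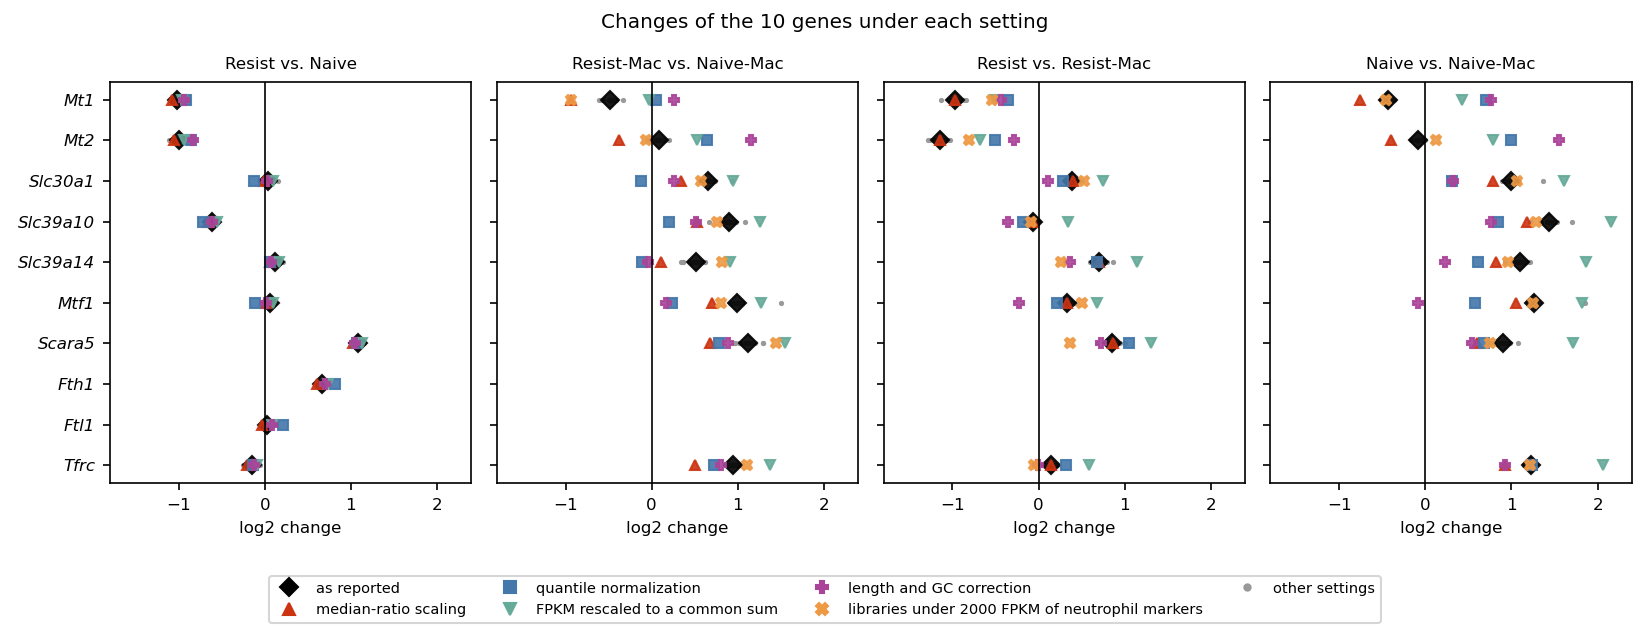
Log2 change (x axis) of the 10 genes (y axis) in the 4 comparisons under each setting; black diamonds are the values reported, colored marks the scalings, the length and GC correction and the libraries under 2000 FPKM of neutrophil markers, and grey points the other settings and each library left out. Changes of Resist vs. Naive are tightly grouped (Mt1 -1.08 to -0.92, Scara5 1.02 to 1.15), and those of Mt1 and Mt2 against Naive-Mac spread on both sides of 0.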

How the data were processed

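The authors deposited log2(FPKM + 1) for Naive and Resist and linear FPKM for Resist-Mac and Naive-Mac, from oligo-dT, paired-end BGISEQ-500 libraries. The submitters' processing notes name Bowtie2 and mm9; the quantification tool and annotation are not given in the sources used here, and counts were not used. The log2 values were turned back to FPKM, and BGI_novel genes, 8.45% of FPKM in that table, were removed. Symbols matched 16978 of 17104 genes. FPKM sums differed between tables, so the level of every gene across tables depends on the scaling.

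For each comparison, limma 3.58.1 (R 4.3.3, trend) was fitted to log2(FPKM + 1), which understates changes of low genes, for genes averaging 1 FPKM or more in its libraries. Calls needed a fold over 1.5 and an adjusted p (Benjamini-Hochberg) under 0.05. The study's NOISeq was not run. In simulated data of the 10119 genes of Resist vs. Naive, 96% of 1-unit and 94% of 2-unit log2 changes were called, with 2 false calls. For the 9760 genes of Resist-Mac vs. Naive-Mac these were 78% and 94%, with 6 false calls. Ratios and pairs used permutation tests (scipy 1.17.1). Lengths, GC content and iron-responsive elements came from GENCODE M21 longest or coding transcripts, and pseudogenes were aligned with minimap2. These references are of a later build than mm9, and no coordinate was taken from the deposited files.

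The 10 genes and all lists were chosen with earlier results of these data known. Named genes are the 10, the 5 largest called changes per direction of the lists in each comparison, and the 5 genes most like Mt1, Mt2 and Scara5. Hba-a1, Lyz2, Cd68, Cd163, Hbb-bt, Krt8 and Krt18 are markers. Some genes that these rules name are not reported here. Members were also fitted in Resist vs. Resist-Mac and Naive vs. Naive-Mac, but as these use the libraries on which they were chosen, no p-value is given. Libraries are labelled as replicates, and p-values measure the spread between these pools, some of which share a number in their names and may not be independent. Replicate numbers do not pair libraries. Alternatives were another pseudocount, other filters and scalings, no trend, the replicate block, 1 fit of all groups, a length and GC correction and each library left out. The 2000 FPKM neutrophil limit, the averaging of libraries that share a number, the Mt1 to Mt2 ratio and the motif window were chosen after seeing the data.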

Additional observations from a re-analysis of the deposited data

Results flagged for a closer look

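Slc39a10 moved in opposite directions in the 2 comparisons of enzalutamide with vehicle, and in each the groups did not overlap: the log2 change was -0.61 in Resist vs. Naive and 0.90 in Resist-Mac vs. Naive-Mac. The difference between these changes was not tested, the first was part of how the genes were chosen, and in the second treatment and batch cannot be told apart. An annotated pseudogene aligned to Slc39a10. In 40 groups of 5 libraries, no library stood far from the others by Dixon's criterion, where chance would give about 2.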

How the results depend on the processing

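Mt1, Mt2, Slc39a10, Scara5 and Fth1 in Resist vs. Naive kept their direction under every setting, while Fth1 reached 0.82, Ftl1 0.21 and Mtf1 -0.11 with quantile normalization. Comparisons across tables depended on the scaling. Called genes numbered 392 in Resist vs. Naive with a filter of 5 FPKM, against 643, and 3495 with a common sum and 898 with the length and GC correction in Resist vs. Resist-Mac, against 2181. In Resist-Mac vs. Naive-Mac, called genes among all list genes that passed the filter numbered 16 in the reported fit. They numbered 25 with median-ratio scaling and 30 with a common sum. In Resist vs. Resist-Mac they numbered 12 in the reported fit and 6 with the length and GC correction. In Naive vs. Naive-Mac they numbered 24 in the reported fit and 39 with a common sum. The log2 changes that turned sign were, in Resist-Mac vs. Naive-Mac, Mt1 (0.05 quantile, 0.26 length and GC), Mt2 (-0.38 median-ratio, -0.07 under the neutrophil marker limit, and -0.05 to 0.20 with each library left out), Slc30a1 (-0.12 quantile) and Slc39a14 (-0.11 quantile, -0.04 length and GC). In Naive vs. Naive-Mac they were Mtf1 (-0.09 length and GC) and Mt1 (0.42 common sum, 0.70 quantile, 0.76 length and GC). Mt2 turned there too, to 0.78, 1.00 and 1.55 in the same settings as Mt1 and 0.12 under the neutrophil marker limit. In Resist vs. Resist-Mac they were Mtf1 (-0.23 length and GC), Slc39a10 (0.34 common sum) and Tfrc (-0.05 under the neutrophil marker limit). Mtf1, Slc30a1 and Ftl1 in Resist vs. Naive reached -0.11, -0.12 and -0.03. The cause was not tested. Replicate numbers did not pair libraries, with correlations of same-numbered deviations from -0.16 to -0.028 in Resist vs. Naive, -0.376 to 0.323 in Resist-Mac vs. Naive-Mac, -0.269 to 0.356 in Resist vs. Resist-Mac and -0.161 to 0.226 in Naive vs. Naive-Mac, and with the replicate block 624, 4534, 2228 and 5888 genes were called in the 4 comparisons. The least abundant members rested on few fragments, and no count-based error was available for FPKM.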
